A study of Homo sapiens with 2 samples.

Results

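Cadherins and protocadherins were examined in the human GBM cell line SF-539 with and without knockdown of FKBP9, a peptidyl-prolyl isomerase of the ER. The members were the protein-coding genes of the deposited table whose symbol is CDH followed by digits or starts with PCDH, which gave 89 of 58735 genes in the table and 89 of its 19951 protein-coding genes. They comprised 5 type I classical cadherins, 13 type II classical cadherins, 5 other CDH genes, 13 non-clustered protocadherins, and 15, 16 and 22 genes of the PCDHA, PCDHB and PCDHG clusters. The shControl cells carried the lentiviral vector pGIPZ-CTRL and the shFKBP9 cells carried an FKBP9-shRNA lentivirus. Both were puromycin-selected stable clones grown in DMEM with 10% FBS at passages 15-18, and the sources used here do not say how many clones each library holds. Total RNA was sequenced from 1 library per condition, so no difference below has a replicate check, and clone, culture and knockdown cannot be told apart.

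Cadherins are calcium-dependent adhesion receptors. Classical cadherins bind cadherins of the neighbouring cell and hold catenins at their cytoplasmic tails, which link them to actin. CDH1 (E-cadherin) is typical of epithelia, whereas CDH2 (N-cadherin) is typical of neural and mesenchymal cells. The clustered protocadherins give neurons individual surface identities: each PCDHA and PCDHG gene has its own promoter and first exon, which is spliced to exons shared by the whole cluster, and PCDHB genes are single-exon genes. Their promoters share a conserved element with a CGCT core and are bound by CTCF and cohesin.

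The deposited values were FPKM, in which fragments are divided by library size and by the length of the gene. All values above 0 (100%) were whole multiples of 1 fragment within a tolerance of 0.01, so fragments could be recovered, 18116873 in shControl and 17158514 in shFKBP9. FKBP9 measured 49.8 FPKM (4659 fragments) in shControl and 4.68 FPKM (415 fragments) in shFKBP9, which left 9.39% of the control level. The line is labelled as epithelial glioma cells. Of 7 epithelial markers 1 reached 1 FPKM (summed 2.07 and 1.84 FPKM in shControl and shFKBP9, with GRHL2 at 0 fragments), and of 6 mesenchymal markers all 6 did (summed 2200 and 2574 FPKM). Of 6 glial and neural stem markers 1 did (3.43 and 3.22 FPKM, with AQP4 at 0 fragments in both), as did 1 of 3 neuronal (5.07 and 5.81 FPKM) and 1 of 3 endothelial markers (2.93 and 2.57 FPKM). None of 5 keratinocyte markers did (0.172 and 1.18 FPKM, 15 and 64 fragments), nor any of 3 blood cell markers (0.0735 and 0.0775 FPKM, with PTPRC and CD3E at 0 fragments). The part of the mesenchymal and keratinocyte differences in the results below was not tested.

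Few cadherins were expressed, and no member at 1 FPKM or more differed by 2-fold between the libraries. Of the 89 members, 16 reached 1 FPKM in either library, 17 had 0 fragments in both, and 46 had at least 10 fragments when the libraries were summed. CDH13, PCDHGC3, CDH2, PCDH7 and CDH24 together held 67.8% of the summed FPKM of all members in shControl and 67.9% in shFKBP9. Past 2-fold, 0 members were higher and 0 were lower, where the log2 ratio of shFKBP9 to shControl was taken from FPKM with 0.1 added to both. Of all 12741 genes at 1 FPKM or more in either library, 2.02% were higher and 2.19% were lower past 2-fold, and of 10346 protein-coding genes 0.213% and 0.193%. At such shares, fewer than 1 of the 16 members would be counted in either direction.

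Smaller differences than 2-fold could be resolved for the members with many fragments. An exact binomial test of the fragments, adjusted by Benjamini-Hochberg over 17105 genes with at least 10 fragments, compares these 2 libraries and not the conditions. By this test 3 of the 46 members (6.52%) were higher in the shFKBP9 library and 3 (6.52%) were lower, beside 9.93% and 11.8% of all genes tested. Of 13040 protein-coding genes tested, 12.2% were higher and 14.7% lower. The higher members were CDH2, CDH18 and PCDH18, the lower ones were PCDHGC3, PCDH7 and PCDH9, and 40 were neither. PCDH9 lies outside the rule for named genes and was chosen after its values were seen. The median log2 ratio of the 46 members was -0.05, beside -0.02 over all genes tested.

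**Figure D1:**
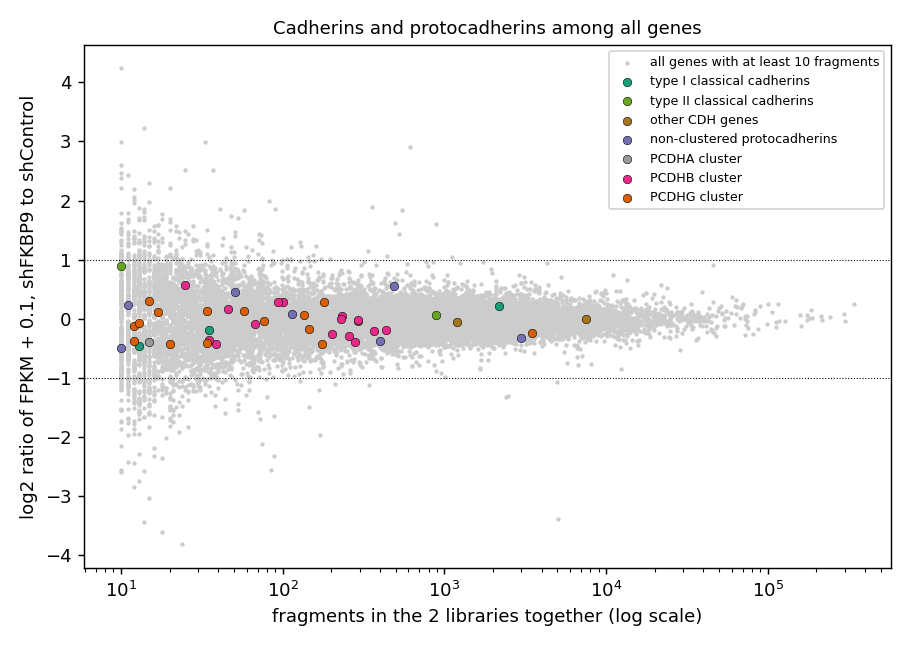
Each point is a gene with at least 10 fragments, with the fragments of both libraries together on a log axis and the log2 ratio of FPKM + 0.1, shFKBP9 to shControl, on the vertical axis. The 46 cadherins and protocadherins are coloured by family, and with 0.1 added all of them lie between the dotted lines at 2-fold, from -0.49 to 0.90. The addition draws genes at low FPKM toward 0. Without it the ratio of CDH18 was 9.49. Those of CDH15, PCDH12 and PCDH15, chosen after their values were seen, also passed 2-fold (log2 -1.09, -1.92 and 1.49), with intervals that hold 0.

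CDH2 dominated the classical cadherins and was modestly higher in the shFKBP9 library. CDH2 (ENSG00000170558, chromosome 18, 27950966 to 28177446, hg38) measured 11.5 FPKM from 1029 fragments in shControl and 13.4 FPKM from 1140 fragments in shFKBP9. The log2 ratio was 0.22, with an exact Clopper-Pearson 95% interval of 0.10 to 0.35 that covers counting error only, as do all intervals here (exact binomial test, adjusted p = 0.00253). CDH2 made up 60.5% of the summed FPKM of the 18 classical cadherins in shControl and 63.1% in shFKBP9. Next came CDH24, a type II cadherin (ENSG00000139880, chromosome 14, 23047062 to 23057538), with 6.57 FPKM from 446 fragments in shControl and 6.88 FPKM from 443 in shFKBP9. Its log2 ratio of 0.07 had an interval of -0.13 to 0.26, which holds 0. The level of CDH2 was 1.75 times that of CDH24 in shControl and 1.95 times in shFKBP9 on the FPKM scale.

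The other type I cadherins were at or near 0. CDH1 had 0 fragments in shControl, which allows a level of up to 0.0268 FPKM, and 1 fragment in shFKBP9. CDH3 (P-cadherin) had 0 and 2 fragments. CDH4 (R-cadherin) was the second type I cadherin by level, at 0.150 FPKM from 20 fragments in shControl and 0.119 FPKM from 15 in shFKBP9. Its interval of -1.41 to 0.70 holds 0, so a difference was not detectable at this depth. CDH1 and CDH3 give no fold because both libraries lie at or under 3 fragments. A loss or gain of CDH1 RNA between the libraries could therefore not be read, and the level of CDH2 was 76.4 and 113 times that of CDH4 in shControl and shFKBP9.

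Among the type II cadherins, CDH24 alone reached 1 FPKM, and 5 of 13 had 0 fragments in both libraries. These were CDH6, CDH8, CDH9, CDH10 and CDH22. CDH11, a cadherin of mesenchymal cells, had 0 fragments in shControl and 2 in shFKBP9. CDH5, the cadherin of endothelium, had 1 and 3 fragments. CDH7, outside the rule for named genes and chosen after its values were seen, was the second type II cadherin at 0.578 and 0.561 FPKM (152 and 140 fragments), with a log2 ratio of -0.04 and an interval of -0.38 to 0.30.

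CDH18, a type II cadherin of the nervous system, passed the exact binomial test from very few fragments. It had 1 fragment (0.0114 FPKM) in shControl and 9 fragments (0.108 FPKM) in shFKBP9. These 10 fragments only just met the minimum for the test, and CDH18 met it through the shFKBP9 library, where it was higher. The ratio of the fragments per library size was 9.49, with an interval of 1.32 to 416, and the adjusted p of the exact binomial test was 0.0463. The level stayed under 1 FPKM in both libraries.

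Summed over the 18 classical cadherins, there were 1663 fragments in shControl and 1763 in shFKBP9, a log2 ratio of 0.16 with an interval of 0.06 to 0.26. CDH2 gave 1029 and 1140 of these fragments, and the rise of the sum rested on it. The sum of the 13 type II genes gave 605 and 601 fragments (0.07, -0.10 to 0.23). Of the 6 classical cadherins with at least 10 fragments, 3 had a log2 ratio above 0 and 3 below, with a median of 0.02.

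The highest CDH gene was CDH13 (T-cadherin), an atypical cadherin held by a lipid anchor and without a catenin-binding tail. CDH13 (ENSG00000140945, chromosome 16, 82626803 to 83800640) measured 19.0 FPKM in both libraries, from 3848 fragments in shControl and 3657 in shFKBP9. The log2 ratio was 0.00 with an interval of -0.06 to 0.07, the narrowest among the members. CDH23, a cadherin of the hair cell tip link, measured 1.87 FPKM from 630 fragments and 1.79 FPKM from 571 fragments, with a log2 ratio of -0.06 (-0.23 to 0.10). The level of CDH13 was 1.65 times that of CDH2 in shControl and 1.42 times in shFKBP9. CDH16, CDH17 and CDH26 were the remaining 3 genes of this group, each with fewer than 10 fragments.

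The non-clustered protocadherins held called differences in both directions. PCDH7 (ENSG00000169851, chromosome 4, 30720415 to 31146805) measured 7.64 FPKM from 1694 fragments in shControl and 6.08 FPKM from 1278 in shFKBP9. Its log2 ratio was -0.33 (-0.44 to -0.22; exact binomial test, adjusted p = 1.70e-08). PCDH18 (ENSG00000189184, chromosome 4, 137518918 to 137532494) was higher in shFKBP9, at 1.66 FPKM from 201 fragments in shControl and 2.50 FPKM from 287 in shFKBP9. Its log2 ratio was 0.56 (interval of the plain ratio 0.33 to 0.86; exact binomial test, adjusted p = 0.000109). Both belong to the delta protocadherins, adhesion molecules that are most studied in the developing nervous system.

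PCDH9, also a delta protocadherin, was counted at a lower level. It measured 0.425 FPKM from 238 fragments in shControl and 0.303 FPKM from 161 in shFKBP9, with a log2 ratio of -0.38 (interval of the plain ratio -0.78 to -0.19; exact binomial test, adjusted p = 0.00656). Of the 13 non-clustered genes, 5 had 0 fragments in both libraries. Among these was PCDH20, of whose exon 8.74% is unshared in GENCODE 44, so its 0 may not mean that it was not expressed. Of the 13 genes, 2 reached 1 FPKM and 7 had at least 10 fragments. Of these 7, 4 had a log2 ratio above 0 and 3 below, with a median of 0.08. The sum over the 13 genes was 2224 and 1827 fragments, a log2 ratio of -0.21 (-0.30 to -0.12). PCDH7 held most of these fragments, and the fall of the sum rested on it.

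**Figure D2:**
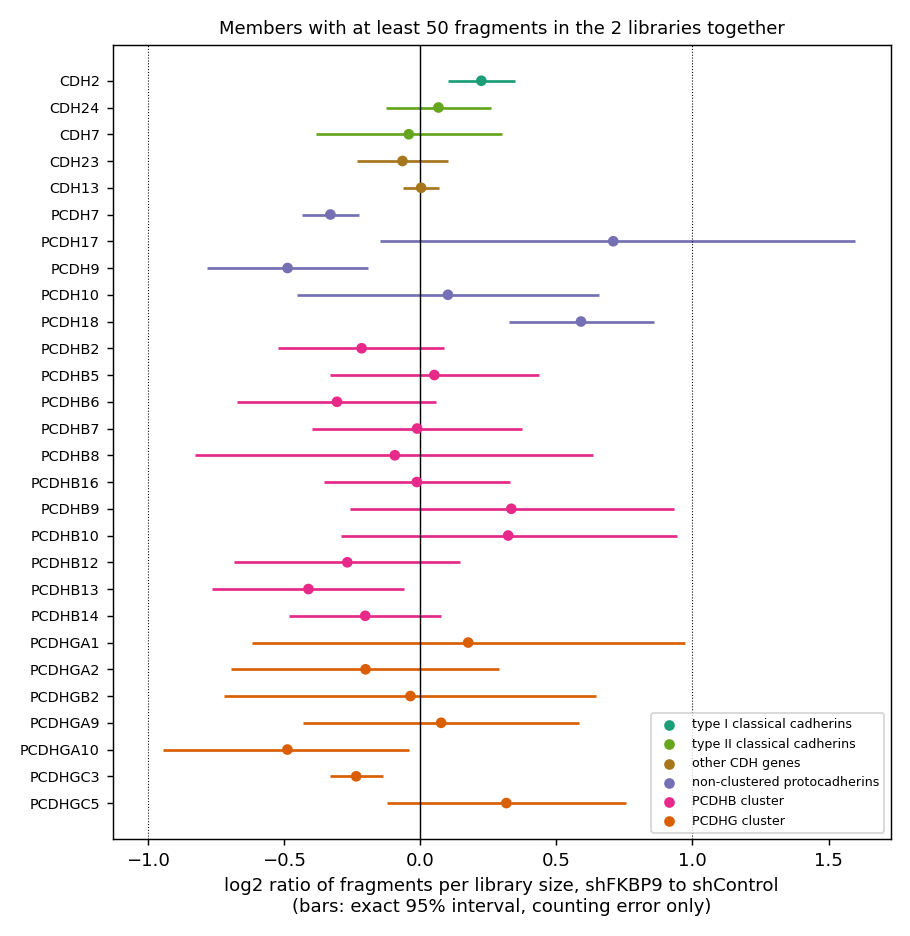
Log2 ratio of the fragments per library size, shFKBP9 to shControl, for the 28 members with at least 50 fragments summed over both libraries, coloured by family, with exact 95% intervals for counting error only. The intervals of CDH2 and PCDH18 lie above 0, those of PCDH7, PCDH9, PCDHB13, PCDHGA10 and PCDHGC3 lie below 0, and the dotted lines mark 2-fold.

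The 3 clusters lie one after the other on the plus strand of chromosome 5 (hg38), PCDHA at 140786136 to 141012347, PCDHB at 141051135 to 141249365 and PCDHG at 141330571 to 141512981, and they differed in level. Promoters of 70 of the 89 members were found in RefSeq (GRCh38.p14), each running from 250 bases before to 50 after the listed start, with 13 of 15 PCDHA, 14 of 16 PCDHB and 20 of 22 PCDHG genes among them. PCDHA3, PCDHA13, PCDHB6, PCDHB11, PCDHGA12 and PCDHGC5 have no entry there. Short words shared within each cluster were read from these promoters after the sequences had been viewed. The windows below show the word of each cluster, or in PCDHB1 its closest match, in capitals, 5′ to 3′ on the plus strand. They cover the highest genes with an entry and a gene of the same cluster at or near 0.
PCDHB14 (chr5:141223259-141223298): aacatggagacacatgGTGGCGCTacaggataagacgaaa
PCDHB2 (chr5:141094540-141094579): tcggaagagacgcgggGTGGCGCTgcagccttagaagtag
PCDHB1 (chr5:141051333-141051372): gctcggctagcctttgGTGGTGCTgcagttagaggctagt
PCDHGC3 (chr5:141475878-141475917): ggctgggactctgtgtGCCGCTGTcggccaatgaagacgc
PCDHGB4 (chr5:141387615-141387654): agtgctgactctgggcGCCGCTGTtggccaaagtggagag
PCDHA1 (chr5:140786082-140786121): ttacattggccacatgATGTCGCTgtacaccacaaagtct
PCDHA12 (chr5:140875240-140875279): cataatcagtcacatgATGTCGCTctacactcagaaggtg

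The PCDHB word, GTGGCGCT, was found on either strand in 13 of 14 PCDHB promoters, in 0 of 13 PCDHA and 0 of 20 PCDHG promoters, and in 1.15% of all 35116 promoters. It began 1 to 83 bases before the listed start. In PCDHB1 the closest match to the word differed by C5T, counted from 1 at the 5′ end of the word. Every promoter has a closest match, so this need not be a changed copy of the word. PCDHB1 had 0 fragments in both libraries. The 13 genes with the word ranged from 0.130 to 2.73 FPKM in shControl and from 0.203 to 2.38 FPKM in shFKBP9. ATGTCGCT was found in 9 of 13 PCDHA promoters and in 0.234% of all promoters, and the PCDHA genes with it reached at most 0.0987 FPKM. GCCGCTGT was found in 11 of 20 PCDHG promoters and in 1.63% of all promoters. The wider word GNCGCTGT, chosen after the count of the narrower one was seen, was found in 17 of 20 PCDHG promoters, in 5 of 13 PCDHA and 1 of 14 PCDHB promoters, and in 4.35% of all promoters. It overlaps ATGTCGCT where GT follows that word. PCDHGC3 and PCDHGB4 both carried GCCGCTGT, at 19.5 and 0.0160 FPKM in shControl. The PCDHG genes without GNCGCTGT measured 0.0380 to 0.0697 FPKM in shControl, within the range of those with it, 0 to 19.5 FPKM. The PCDHA genes without ATGTCGCT measured 0 to 0.0264 FPKM, also within the range of those with it, 0 to 0.0987 FPKM. CGCT, which all of these words contain, was found in 12 of 13, 14 of 14 and 20 of 20 promoters of the 3 clusters and in 70.0% of all promoters. These matches are descriptions of the letters, and the genes of a cluster are related copies.

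In the PCDHA cluster no gene was expressed at a level that could be compared. Its 15 genes held 26 fragments in shControl and 14 in shFKBP9, with 6 genes at 0 fragments in both libraries and none at 1 FPKM. PCDHA1 was the highest, at 0.0987 FPKM from 10 fragments and 0.0521 FPKM from 5 fragments. The log2 ratio of the sums was -0.82 with an interval of -1.87 to 0.17, so that a difference was not detectable at this depth.

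The PCDHB cluster was expressed broadly, with 15 of 16 genes carrying at least 10 fragments and 8 at 1 FPKM or more. PCDHB14 and PCDHB2 were the highest. PCDHB14 measured 2.73 FPKM from 239 fragments in shControl and 2.38 FPKM from 197 in shFKBP9. PCDHB2 measured 2.70 and 2.33 FPKM (202 and 165 fragments), and PCDHB6 2.47 and 1.997 FPKM (146 and 112 fragments). The intervals of all 3 ratios hold 0. PCDHB5 measured 1.90 and 1.97 FPKM, PCDHB7 1.73 and 1.72 FPKM, and PCDHB16 1.66 and 1.64 FPKM, so these 3 genes were nearly level between the libraries. PCDHB12 measured 1.61 and 1.34 FPKM, with a log2 ratio of -0.25 (-0.68 to 0.15).

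PCDHB13 was the only gene of the PCDHB cluster whose interval lay off 0. It measured 1.79 FPKM from 164 fragments in shControl and 1.35 FPKM from 117 in shFKBP9, with a log2 ratio of -0.39 (-0.77 to -0.06). The exact binomial test gave an adjusted p of 0.0797, so PCDHB13 did not pass it, nor did any other PCDHB gene. Of the 8 genes at 1 FPKM or more, 7 had a ratio below 0 and 1 above, with a median of -0.20, beside 9092 below 0 of all 17105 genes tested. When the median log2 ratio of all genes of like GC content was subtracted from each, a step chosen after the data were seen, 5 of the 8 lay below 0 and 3 above. Of the 7 under 1 FPKM with at least 10 fragments, 4 were above 0 and 3 below. Summed over the cluster, 1450 fragments in shControl and 1254 in shFKBP9 gave a log2 ratio of -0.13 (-0.24 to -0.02), an interval that came to hold 0 after the subtraction for GC content (-0.09, -0.20 to 0.02). PCDHB14 held 16.5% of the cluster's fragments in shControl (exact Clopper-Pearson 95% interval 14.6 to 18.5) and 15.7% in shFKBP9 (13.7 to 17.8).

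The PCDHG cluster was dominated by PCDHGC3, the highest of all members in shControl. PCDHGC3 (ENSG00000240184, chromosome 5, 141475947 to 141512979) measured 19.5 FPKM from 1919 fragments in shControl and 16.6 FPKM from 1546 in shFKBP9. Its log2 ratio was -0.23 (-0.33 to -0.14; exact binomial test, adjusted p = 2.67e-05), and -0.14 (-0.24 to -0.05) after the subtraction for GC content. It held 79.0% of the cluster's fragments in shControl (exact Clopper-Pearson interval 77.3 to 80.6) and 77.2% in shFKBP9 (75.3 to 79.0). The C-type genes are expressed without the random promoter choice of the other clustered genes in neurons.

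PCDHGC5, another C-type gene, reached 1 FPKM in the shFKBP9 library alone, and the sign of its ratio could not be told. It measured 0.919 FPKM from 83 fragments in shControl and 1.14 FPKM from 98 in shFKBP9, and its log2 ratio of 0.29 had an interval of -0.12 to 0.76, which holds 0. The level of PCDHGC3 was 21.2 times that of PCDHGC5 in shControl and 14.5 times in shFKBP9. PCDHGA10 and PCDHGA9 were chosen after their values were seen. PCDHGA10 measured 0.873 FPKM from 105 fragments in shControl and 0.623 FPKM from 71 in shFKBP9, with a log2 ratio of -0.43 (interval of the plain ratio -0.94 to -0.04; exact binomial test, adjusted p = 0.105). PCDHGA9 measured 0.791 and 0.834 FPKM from 68 fragments in each library.

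The PCDHG sum, 2430 fragments in shControl and 2003 in shFKBP9, gave a log2 ratio of -0.20 (-0.29 to -0.12), which the subtraction for GC content brought to -0.11 (-0.20 to -0.03). The sum rested on PCDHGC3. Without it, 511 and 457 fragments gave -0.08 (-0.27 to 0.10), an interval that holds 0. Of the 15 PCDHG genes with at least 10 fragments, 6 had a ratio above 0 and 9 below, with a median of -0.06.

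Levels across the clusters depend on how exons shared by several genes were counted. In GENCODE 44 all 15 PCDHA genes share 2869 bases of exon and all 22 PCDHG genes share 2177, whereas the 16 PCDHB genes share 0, and the gene lengths behind the FPKM include the shared bases. PCDHGB4, chosen after its values were seen, had 2 fragments in shControl and 0 in shFKBP9 beside the 1919 and 1546 of PCDHGC3, so fragments in the shared exons were not counted for every gene of the cluster. Per kilobase of unshared exon, with all fragments of a gene divided by that shorter length, PCDHGC3 came to 32.6 in shControl and 27.7 in shFKBP9, above CDH13 at 24.2 in both, whereas in FPKM CDH13 was the higher in shFKBP9. PCDHB2, of whose exon 56.1% is unshared, came to 4.82 and 4.15 on that scale, above PCDHB14 at 2.84 and 2.47, so the order of these genes turned. PCDHA1, with 0.125% of its exon unshared, has no level on that scale, where PCDHA7 from 4 fragments (0.0756) led the PCDHA genes in shControl and PCDHA13 from 4 fragments (0.115) led them in shFKBP9, both chosen after their values were seen. The ratio of PCDHGC3 to PCDHGC5 was 20.1 in shControl and 13.7 in shFKBP9. Near-identical stretches among the PCDHB genes can also exchange fragments. The 17 rows of the family that are not protein coding held few fragments, with 74 and 59 on the pseudogene PCDHB17P, chosen after its values were seen, as the highest.

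The ratios of the 2 libraries also moved with GC content. Over 11427 genes that reached 1 FPKM in either library and 50 fragments in all, the median log2 ratio went from 0.14 in the lowest of 10 equal bins of GC content to -0.12 in the highest. PCDHGC3 has a GC content of 56.5%, and the median of its bin was -0.09. After subtraction of the median of its bin CDH2, at 43.1%, became 0.21 (0.09 to 0.33), PCDH7, at 47.1%, became -0.30 (-0.41 to -0.19), and PCDH18, at 40.1%, became 0.45 (0.21 to 0.74). PCDH9, at 34.3%, moved away from 0, from -0.38 to -0.52 (-0.92 to -0.33). PCDHB13 became -0.36 (-0.74 to -0.03), and the interval of PCDHGA10 came to hold 0, at -0.34 (-0.85 to 0.05). This subtraction was chosen after the data were seen.

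The catenins, which tie cadherins to actin, included genes above every cadherin in level. VCL (vinculin), which binds alpha-catenin and actin, was the highest of the list at 61.3 and 68.2 FPKM in shControl and shFKBP9, with a log2 ratio of 0.15, and was called higher. CTNNB1 (beta-catenin) measured 40.0 FPKM in shControl and 38.6 FPKM in shFKBP9, with a log2 ratio of -0.05. CTNND1 (p120-catenin), which holds cadherins at the membrane, measured 27.0 and 25.0 FPKM, with a ratio of -0.11, and was called lower. CTNNA1 (alpha-catenin), chosen after its values were seen, measured 43.1 and 38.6 FPKM (-0.16) and was also called lower. Among genes at 1 FPKM or more, the largest rise in value was that of CTNNAL1, an alpha-catenin-like gene, at 39.7 and 47.7 FPKM (0.26), and the largest fall in value that of PKP3, a desmosomal plakophilin, at 3.50 and 2.48 FPKM (-0.48). Of 11 tested genes of this list, 2 (18.2%) were higher and 4 (36.4%) lower by the exact binomial test, beside 9.93% and 11.8% of all genes tested, with a median of -0.05. Of protein-coding genes tested, 12.2% were higher and 14.7% lower. Genes with more fragments pass the test at smaller ratios, which limits this comparison and those of the lists below.

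Of 8 proteases and gamma-secretase subunits that cleave cadherins, 0 were higher and 2 (25.0%) lower by the same test and beside 9.93% and 11.8% of all genes tested, with a median of 0.01, between PSENEN at 13.5 and 15.2 FPKM (0.17) and ADAM15 at 7.05 and 6.17 FPKM (-0.19). APH1A, a gamma-secretase subunit, was the highest at 40.5 and 41.0 FPKM (0.02). Of 8 repressors of CDH1, 2 (25.0%) were higher and 2 (25.0%) lower, against the same shares of all genes, with a median of -0.13 that became -0.06 after the subtraction for GC content. SNAI2 was the highest of them, at 87.6 and 92.9 FPKM. ZEB2 measured 3.70 and 4.28 FPKM (0.21) and TWIST1 53.6 and 41.9 FPKM (-0.35).

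Of 11 regulators of the clustered protocadherins, 4 (36.4%) were higher and 1 (9.09%) lower by the exact binomial test, beside 9.93% and 11.8% of all genes tested, and 9 had a ratio above 0, with a median of 0.10. The GC bins of these genes had a median of 0.11 over all genes, and after subtraction of each gene's own bin median the median of the list was 0.02, with 7 above 0 and 4 below. RAD21, a cohesin subunit, was the highest, at 35.3 and 39.8 FPKM (0.17), and was called higher. The ratios ranged from SMC3, a cohesin subunit, at 13.7 and 16.1 FPKM (0.23), to DNMT3B, a DNA methyltransferase, at 3.90 and 3.08 FPKM (-0.33). Of 15 other genes of the cadherin superfamily tested, 0 were higher and 6 (40.0%) lower, beside 9.93% and 11.8% of all genes tested, and 13 had a ratio below 0, with a median of -0.27. Their GC bins had a median of -0.09 over all genes, and after subtraction of each gene's own bin median the median of the list was -0.23, with 3 above 0 and 12 below. Among those at 1 FPKM or more, FAT4, a giant cadherin, had the largest fall in value at 2.19 and 1.56 FPKM (-0.47), and CLSTN1, a calsyntenin, was nearest to 0 at 33.3 and 31.9 FPKM (-0.07). CELSR2, under 1 FPKM and chosen after its values were seen, fell further in value, at 0.546 and 0.241 FPKM from 122 and 51 fragments (-0.92; exact binomial test, adjusted p = 6.48e-06). Of 5 nectins and afadin, 0 were higher and 1 was lower, beside 9.93% and 11.8% of all genes tested, with a median of 0.07 that became 0.01 after the subtraction for GC content. NECTIN2 was the highest and the gene called lower, at 27.0 and 22.5 FPKM (-0.26). Those at 1 FPKM or more ranged from NECTIN1 at 1.62 and 1.25 FPKM (-0.35) to NECTIN3 at 4.01 and 4.45 FPKM (0.15).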

How the data were processed

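RNA of 2 libraries, 1 per condition, was analysed, grouped by the treatment label. Per the submitters' processing notes and the methods, the authors used HISAT2 2.0.5 to align read pairs to hg38, counted them with featureCounts 1.5.0-p3, used edgeR for their own comparison and deposited FPKM. The counting of shared exons, the strand setting and the annotation release are not given in the sources used here. There were 0 further columns of values per library.

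Fragments were recovered from FPKM and gene length, with 1 fragment on a gene of 1 kilobase worth 0.0552 FPKM in shControl and 0.0582 FPKM in shFKBP9. Log2 ratios used FPKM with 0.1 added. Intervals were exact Clopper-Pearson at 95% on fragments without the addition, and exact binomial tests were adjusted by Benjamini-Hochberg at 0.05 over genes with at least 10 fragments. Both cover counting error only. A count of 0 allows up to 3 fragments. On simulated data for this comparison, with 58735 genes and 200 changed, 98.5% of the changed genes were called past 2-fold. Intervals held the true ratio for 95.7% of genes with at least 10 fragments. The simulation held counting error only, which the intervals assume, and its changes were large and in genes with many fragments. It therefore does not show how members with few fragments or small differences would be called. GENCODE 44 gave exons and GC content. It lists 58207 of the 58735 gene identifiers, and 86 of the 89 members have their start and end within 1000 bases of the deposited ones. The exceptions are CDH2, CDH3 and CDH18. CDH2 has a deposited length of 4950 bases and 8583 exon bases in GENCODE 44, so its level beside other genes depends on the annotation. Promoters were those of RefSeq. Calculations ran in Python 3.11.15 with scipy 1.17.1, pandas 2.3.3 and numpy 2.4.6, and plots were drawn in matplotlib 3.10.9.

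Members and lists were chosen with earlier results of these data known. Named were CDH1, CDH2, CDH3, CDH4, CDH5, CDH6, CDH10, CDH11, CDH13 and CDH18, members at 1 FPKM or more in either library, members with at least 10 fragments past 2-fold, the highest member of each list, CTNNB1, CTNND1, the largest rise and fall of each partner list, and FKBP9. Genes named outside this rule are given as chosen after their values were seen, or by having 0 fragments, fewer than 10 fragments or no promoter entry. Alternatives were other additions, scalings, minimums and lengths, the binomial test, and medians in place of sums.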

Additional observations from a re-analysis of the deposited data

How the results depend on the processing

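The counts of 0 members higher and 0 lower past 2-fold stayed at 0 with 1 or 0.01 added to FPKM, with scaling by the median ratio or to TPM, with 1 FPKM in both libraries, per unshared exon length, and after subtraction of the median of genes of like GC content. With no minimum the counts were also 0, but 50 of the 89 members lay under 0.1 FPKM in both libraries and could not pass 2-fold with 0.1 added, so this is no check for them. The exact binomial test in place of the fold gave 3 higher and 3 lower. The log2 ratio of CDH2 stayed between 0.21 and 0.24 under its 5 alternatives. The PCDHA and PCDHB sums kept their sign and stayed within their intervals under 4 alternatives each. As the median of the genes with at least 10 fragments they came to -0.39, which is PCDHA1 alone and no check of its sum, and to -0.08. After the subtraction for GC content the interval of the PCDHB sum held 0 (-0.09, -0.20 to 0.02). The PCDHG sum of -0.20 became -0.062 as the median of its genes, -0.11 after the subtraction for GC content and -0.084 without PCDHGC3, the last 2 chosen after the data were seen. No paired analysis was possible because each condition has 1 library and the groups share fewer than 2 replicate numbers. With 1 library each, the spread between cultures is unknown, and for members under about 50 fragments counting error alone spans wide ratios.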
